A study of Mus musculus with 91 samples.

Results

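The DM domain transcription factors Dmrt1, Dmrt2, Dmrt3, Dmrta1 and Dmrta2 were measured in sorted cells of the fetal mouse gonad by whole-transcript microarray. The genes were taken by symbol: a transcript cluster (the set of probes that the array summarises into 1 value) was used where its annotation named 1 gene and that gene was one of the 5. Each gene had 1 such cluster, so that the set was 5 of 19938 genes with a single-gene cluster, and all 5 clusters passed the low-signal filter that left 16820 clusters of 15324 genes for testing. Cells were sorted for a fluorescent reporter at 3 stages (embryonic days E11.5, E12.5, E13.5) from XY and XX gonads, with 3 replicate arrays in each group, each from cells pooled over 1 or more litters. The labels and methods say that replicates were separate samples but not how litters were divided among them, so that p-values measure the spread between these pools.

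XY supporting cells carried Sry-EGFP at E11.5 and Sox9-ECFP at E12.5 and E13.5, and XX supporting cells carried Sry-EGFP at all 3 stages. The Sry-EGFP transgene lacks the SRY open reading frame. Comparisons of XY with XX supporting cells after E11.5, and of E12.5 with E11.5 XY supporting cells, therefore also compare reporters, and reporter and sex or stage cannot be told apart there. XY and XX germ cells were positive for Oct4-EGFP, sorted from gonads with the mesonephros attached, and XY and XX endothelial cells for Flk1-mCherry, with part of the mesonephros kept at E11.5. The Sry-EGFP, Sox9-ECFP and Oct4-EGFP embryos came from crosses of CD-1 and C57BL/6J mice and the Flk1-mCherry embryos were CD-1, so that strain differed between some lineages. A further population positive for aSma-EYFP, labelled as mesenchymal cells of strain FVB and left out of the study's own lineage comparisons, was measured on 18 arrays in 6 groups. The methods give this line as a mix of FVB and CD-1. The study left the cells out because at E11.5 they had high Sry and stained for SRY and SOX9 protein. It described a mixed sort that, at least early, held supporting cells too, and allowed for leaky expression of the transgene. The 3 lineages made up 54 arrays in 18 groups, and 1 array of a whole newborn mouse was measured too.

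DM domain proteins bind DNA through an intertwined zinc module first described in the sex-determining genes doublesex of the fly and mab-3 of the nematode. Dmrt1 is expressed in Sertoli cells and germ cells of the mouse gonad, where it is needed for testis differentiation after birth, for maintaining Sertoli cell identity against granulosa cell fate and for the timing of meiotic entry. Dmrt2 acts in somite patterning, Dmrt3 in the specification of spinal interneurons, and Dmrta2 in patterning of the dorsal telencephalon, whereas Dmrta1 is known from the ovary, where mutant mice have follicles with several oocytes. On mouse chromosome 19, Dmrt1, Dmrt3 and Dmrt2 lie next to each other in that order between Kank1 and Smarca2. On chromosome 4, Dmrta1 lies between Cdkn2b and Zfp352, and Dmrta2 between Faf1 and Elavl4, where the antisense gene Dmrta2os overlaps it.

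Germ cell and endothelial markers were highest in the sorts labelled for them. The mean over 8 germ cell markers was 9.93 to 10.7 log2 units on germ cell arrays, 5.79 to 6.80 on supporting cell arrays and 6.00 to 7.46 on endothelial arrays. The mean over 8 endothelial markers was 9.52 to 10.5 on endothelial arrays and at most 6.66 on supporting, germ and aSma-EYFP arrays. At E12.5 the 4 markers of XY supporting cells averaged 10.2 in XY and 6.82 in XX supporting cells. Those of XX supporting cells averaged 9.23 in XX and 6.96 in XY. Among them Foxl2 hardly varied, with group means of 6.26 to 6.48 in supporting and 6.15 to 6.39 in endothelial cells. Markers of other cells were present in some sorts. Leydig cell markers averaged 10.7 in XY and 5.59 in XX endothelial groups at E13.5. Erythroid markers averaged 8.18 to 10.15 on endothelial arrays and at most 8.23 on the others. Macrophage markers averaged 6.4 to 7.6 on endothelial arrays and at most 6.22 on supporting, germ and aSma-EYFP arrays. Over 4 Y-linked genes, within these lineages and the aSma-EYFP cells, the lowest XY array stood at 7.01 and the highest XX array at 5.89. In such sorted but bulk samples, fewer cells of a type and less RNA per cell cannot be told apart.

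Values are log2 intensities, normalised over the arrays by the authors, and a difference of 1 is a 2-fold change. A level of 6 was the limit of the study's low-signal filter, so that a fold change against a lower level is a lower bound at best. The genes differed in how far their levels moved over the 18 lineage groups. Dmrta1 spanned 2.96 log2 units, from a lowest group mean of 5.84 to a highest of 8.80, a wider span than that of 93.2% of the tested clusters. Dmrt1 spanned 1.83 units (7.0 to 8.83), more than 79.6% of clusters. The spans of Dmrt3 (0.60, 7.66 to 8.27), Dmrt2 (0.54, 5.59 to 6.13) and Dmrta2 (0.29, 7.14 to 7.43) were wider than those of 29.5%, 25.7% and 5.9% of clusters. The median SD within a group lay between 0.08 for Dmrta2 and 0.21 for Dmrta1. Dmrt1, Dmrt3 and Dmrta2 were above the limit of 6 on all 54 arrays, Dmrta1 on 38 and Dmrt2 on 10. With groups ranked by mean, nearly every group overlapped the next one in the order. Of the 17 pairs of neighbours for each gene, 2 stood apart for Dmrt1, where E11.5 XY supporting cells ranked above E11.5 XX germ cells and E11.5 XY germ cells above E12.5 XX supporting cells. For Dmrta1 2 stood apart, where E13.5 XY supporting cells ranked above E12.5 XY supporting cells and these above E12.5 XX endothelial cells.

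Dmrt1 was present in supporting cells of both sexes at E11.5 and separated the sexes from E12.5. At E11.5 it stood at 8.05, 8.30 and 8.18 in the XY arrays and at 8.35, 8.48 and 8.09 in the XX arrays. These groups overlapped, and the difference (XY minus XX) was -0.13 with a 95% interval of -0.40 to 0.15 (adjusted p = 0.737, limma). At E12.5 the XY arrays held 8.97, 8.82 and 8.69 and the XX arrays 7.55, 7.70 and 7.58. All XY arrays lay above all XX arrays, by 1.21 ± 0.14 (SE) log2 units or 2.32-fold on average (adjusted p = 2.5e-10), in a comparison in which 30.7% of the tested clusters passed the adjusted threshold of 0.05 and 16.9% passed it as higher in XY. At E13.5 the XY arrays held 8.92, 8.28 and 8.58 against 7.23, 7.36 and 7.08 in the XX arrays. The groups were again apart, by 1.37 ± 0.14 (SE) units or 2.58-fold (adjusted p = 6.9e-12), with 29.4% of clusters called and 14.7% called as higher in XY. Both differences stayed called under all 16 alternative settings, within 1.14 to 1.28 at E12.5 and 1.21 to 1.52 at E13.5. Beside these and the other sex differences in supporting cells at E13.5, Leydig cell markers averaged 7.13 in XY and 5.76 in XX supporting cells at that stage, with 4 of 4 tested called higher in XY, and their part in the differences was not tested.

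**Figure D1:**
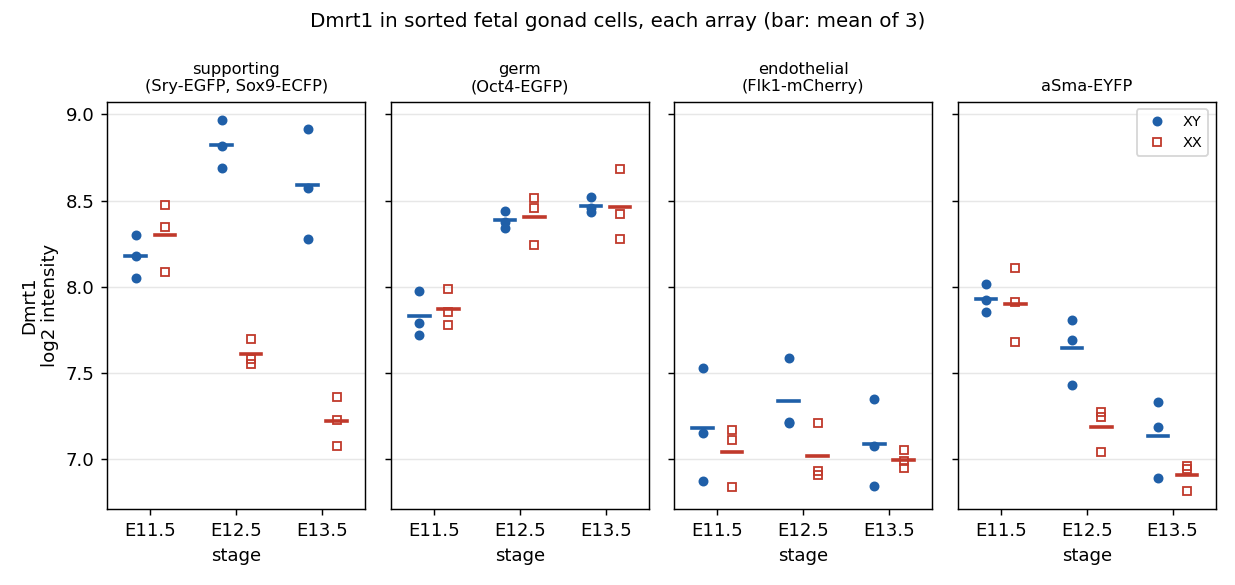
Log2 intensity of Dmrt1 (vertical axis) on each array by embryonic stage, E11.5 to E13.5 (horizontal axis), with a panel for each sorted population, XY left of XX, and bars at the group means. The XY and XX supporting cells overlap at E11.5 and stand apart at E12.5 (means 8.83 and 7.61) and E13.5 (means 8.59 and 7.22), while germ cells of both sexes stay together.

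The separation came from both sexes. From E11.5 to E12.5, Dmrt1 rose in XY supporting cells by 0.65 log2 units (95% interval 0.37 to 0.93, 1.57-fold, adjusted p = 3.8e-04, with 21.8% of clusters called) and fell in XX supporting cells by 0.69 units (1.62-fold, adjusted p = 4.0e-04, with 6.59% of clusters called). The sex difference itself grew by 1.34 units between these stages (95% interval 0.94 to 1.73, adjusted p = 8.1e-07, with 11.8% of clusters called for the same change). From E12.5 to E13.5 neither step passed the test. It was -0.23 in XY cells (adjusted p = 0.778) and -0.39 in XX cells (adjusted p = 0.203), although every XX array at E13.5 was below every XX array at E12.5, and 1.63% of clusters in XY and 1.5% in XX were called for this step. The rise in XY cells coincides with the change of reporter, whereas the XX cells carried Sry-EGFP throughout.

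In germ cells no sex difference of Dmrt1 was called at any of the 3 stages. At E11.5 XY germ cells held 7.79, 7.72 and 7.98 and XX germ cells 7.85, 7.99 and 7.78. At E12.5 the values were 8.37, 8.34 and 8.44 in XY and 8.24, 8.51 and 8.46 in XX, and at E13.5 they were 8.46, 8.43 and 8.52 in XY and 8.42, 8.68 and 8.28 in XX. The sexes overlapped at each stage, and the 95% intervals of the differences ran from -0.32 to 0.24, from -0.30 to 0.26 and from -0.27 to 0.29, while 0.202%, 4.48% and 21.1% of clusters were called between XY and XX germ cells at these stages. Levels rose with stage instead, by 0.56 units from E11.5 to E12.5 in XY germ cells (adjusted p = 0.00932, with 3.73% of clusters called) and by 0.53 units in XX germ cells (adjusted p = 0.0116, with 5.43% of clusters called). Both steps lost their call under the methods' limits of an unadjusted p of 0.05 and a 1.5-fold change. The XY step also lost it without E11.5 XY Oct4-EGFP replicate 2 (0.51) or E12.5 XY replicate 3 (0.53), and the XX step without E11.5 XX replicate 3 (0.49) or E12.5 XX replicates 2 (0.48) or 3 (0.51), with adjusted p reaching 0.0929. The 4 markers of XY supporting cells averaged 6.75 at E12.5 and 6.23 at E11.5 in XY germ cells, and 5.98 at E12.5 and 6.05 at E11.5 in XX germ cells, where Dmrt1 rose too. Their part in the rise was not tested. The difference between the lineages was tested directly. The Dmrt1 sex difference in supporting cells exceeded that in germ cells by 1.23 units at E12.5 (95% interval 0.84 to 1.63, adjusted p = 1.9e-06, with 20.1% of clusters called) and by 1.36 units at E13.5 (0.96 to 1.75, adjusted p = 1.6e-07, with 27.4% called), but not at E11.5 (-0.08, with 4.67% called).

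Dmrt1 was also measured in aSma-EYFP and endothelial cells. The aSma-EYFP cells at E12.5 held 7.81, 7.43 and 7.69 in XY and 7.28, 7.04 and 7.25 in XX, without overlap, a difference of 0.46 (95% interval 0.18 to 0.73, adjusted p = 0.0345, with 5.15% of clusters called) that did not pass without XX replicates 2 (0.38) or 3 (0.48) or XY replicates 1 (0.37) or 3 (0.43). Beside this result, the 4 markers of XY supporting cells (Sox9, Amh, Dhh, Cst9) averaged 7.40 in XY and 6.28 in XX aSma-EYFP cells at E12.5, and their part in the Dmrt1 difference was not tested. In XX aSma-EYFP cells Dmrt1 fell by 0.71 units from E11.5 to E12.5 (adjusted p = 5.3e-04, with 2.23% of clusters called), against 7.91, 8.11 and 7.68 at E11.5. In XY aSma-EYFP cells the E13.5 arrays held 6.89, 7.19 and 7.33, all below the E12.5 arrays, and the step was -0.51 (adjusted p = 0.0453, with 1.13% of clusters called). It lost its call under 8 of 14 alternatives, among them the replicate block (adjusted p = 0.0768) and the fits without XY replicate 1 at E13.5 (-0.38), replicate 2 at E13.5 (-0.53) or replicates 1 (-0.43) or 3 (-0.48) at E12.5. Endothelial cells held 6.84 to 7.59, with no sex difference of Dmrt1 called at any stage, in contrasts that called 0.981%, 3.55% and 5.31% of clusters.

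The order of the lineages for Dmrt1 depended on sex and stage. Lineages differed in many genes, so that a call between lineages was common. At the 3 stages, supporting against germ cells called 47.9%, 46.9% and 45.5% of clusters in XY and 48.1%, 47.3% and 46.8% in XX, supporting against endothelial cells 36.7%, 36% and 31.2% in XY and 35.6%, 36.1% and 33.2% in XX. Germ against endothelial cells called 49.5%, 50.5% and 48.7% in XY and 45.2%, 51.4% and 47.7% in XX. Supporting cells were higher than both other lineages in XY at E11.5 and E12.5 and in XX at E11.5, a pattern found for 10.5%, 10.4% and 10.7% of clusters. In XX at E12.5 and E13.5 the germ cells were higher than both others, as were 19.2% and 18% of clusters. The supporting minus germ difference was 0.35 (adjusted p = 0.0339), 0.44 (0.00728) and 0.12 (0.530) in XY at the 3 stages, and 0.43 (0.00838), -0.80 (3.0e-06) and -1.24 (5.6e-11) in XX. The smaller of these calls depended on single arrays. The XY E11.5 call was lost without Oct4-EGFP replicates 1 or 2 or Sry-EGFP replicates 2 or 3 (adjusted p up to 0.129), the XY E12.5 call without Sox9-ECFP replicate 1 (adjusted p = 0.0502) and the XX E11.5 call without Sry-EGFP replicate 2 (adjusted p = 0.0662). Endothelial cells were lower than both other lineages in XY at all 3 stages and in XX at E11.5 and E12.5, as were 8.17%, 6.96%, 6.44%, 5.42% and 8.69% of clusters. The supporting minus endothelial difference was 0.99, 1.49 and 1.5 in XY, and 1.26, 0.59 and 0.22 in XX, where the E13.5 value was not called (adjusted p = 0.235). The germ minus endothelial difference ran from 0.65 in XY at E11.5 to 1.46 in XX at E13.5. All 11 called differences from endothelial cells were kept under every alternative tried. Dmrt1 was called in 16 of the 18 comparisons between lineages.

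Dmrt3, the neighbour of Dmrt1, showed the same sex in the lead at smaller size. Supporting cells at E11.5 held 8.39, 8.06 and 8.19 in XY and 8.15, 8.29 and 8.09 in XX. At E13.5 they held 8.10, 8.19 and 8.22 in XY and 7.52, 7.83 and 7.72 in XX. The sexes overlapped at E11.5 and were apart at E13.5, where the difference was 0.48 (95% interval 0.22 to 0.75, 1.40-fold, adjusted p = 0.00316), called under every alternative tried except the methods' 1.5-fold limit. At E12.5 the XY arrays held 8.21, 8.28 and 8.31 and the XX arrays 7.75, 8.34 and 8.00. These overlapped through 1 high XX array. The difference was 0.24 (adjusted p = 0.177), and 0.39 (adjusted p = 0.0309) without that array, E12.5 XX Sry-EGFP replicate 2. In aSma-EYFP cells at E12.5 Dmrt3 stood at 8.06, 7.86 and 8.09 in XY and 7.65, 7.25 and 7.52 in XX, apart by 0.53 (95% interval 0.26 to 0.80, 1.44-fold, adjusted p = 0.00747), a call lost without XX replicate 2 (0.42) or XY replicate 3 (0.49). No stage step of Dmrt3 was called. The other steps within a lineage, in which none of the 5 genes was called, called 6.66% of clusters in XY and 10.8% in XX germ cells from E12.5 to E13.5. Over the earlier and the later step they called 8.89% and 3.15% in XY and 4.24% and 0.327% in XX endothelial cells, and the later step called 0.291% in XX aSma-EYFP cells. Changes of the sex difference in which none of the 5 genes was called were found for 0.713% of clusters in germ and 6.06% in endothelial cells from E11.5 to E12.5, and for 1.03% in supporting, 3.44% in germ, 1.11% in endothelial and 0.208% in aSma-EYFP cells from E12.5 to E13.5. Among lineages Dmrt3 was called in 8 of 18 comparisons. These comparisons called 31.2% to 51.4% of all clusters, so that the count is not particular to Dmrt3. Of the 12 comparisons that each lineage entered, supporting cells were higher in 4 and lower in 1, and germ cells higher in 4 and lower in none, while endothelial cells were lower in 7.

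Over the 18 group means the levels of Dmrt1 and Dmrt3 had a Pearson correlation of 0.90, the highest among the 10 pairs of the 5 genes, of which the next was 0.28 for Dmrt2 and Dmrta1. These points share arrays, normalisation and the lineage of their cells, and the value is a description. The third gene of the cluster did not share the pattern, with a correlation of -0.46 between Dmrt1 and Dmrt2.

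**Figure D2:**
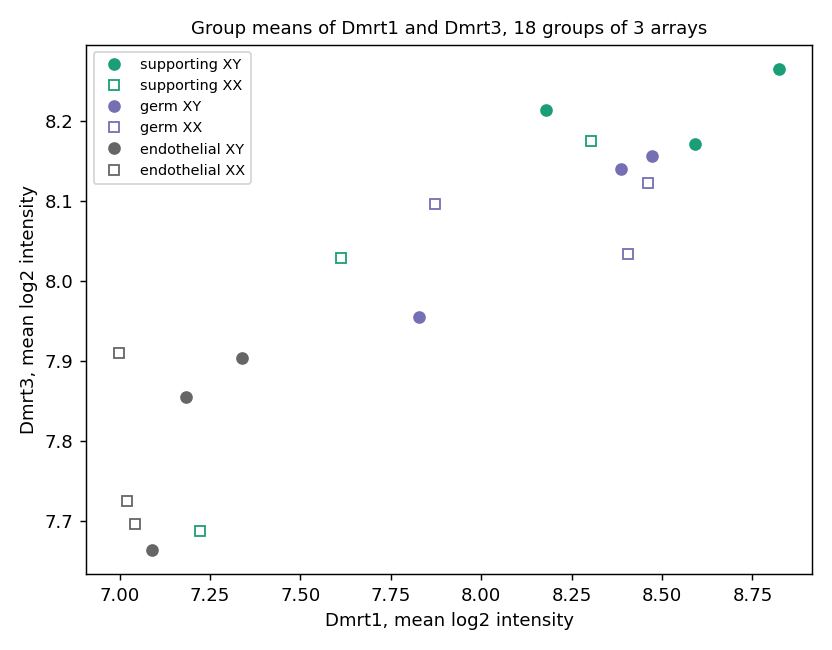
Mean log2 intensity of Dmrt3 (vertical axis) against that of Dmrt1 (horizontal axis) in the 18 groups of the 3 lineages, coloured by lineage with symbols for XY and XX. Most supporting cell and germ cell groups lie at the upper right and the endothelial groups at the lower left, with a Pearson correlation of 0.90.

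Dmrt2 was at the limit of the filter. Its values lay between 5.47 and 6.46 on the 54 arrays, and only 3 of 18 groups had 2 or more arrays above 6. None of its 12 sex differences and no stage step was called, and the widest sex difference was 0.21, in germ cells at E11.5. In E12.5 endothelial cells, the groups with the highest means, Dmrt2 stood at 6.29, 6.10 and 6.00 in XY and at 5.68, 6.05 and 6.46 in XX, so that the XX range enclosed the XY range. XY endothelial cells at E12.5 were higher than both other lineages, as were 11.5% of clusters. Of the 18 groups, the 3 through which Dmrt2 passed the filter were both E12.5 endothelial groups and E11.5 XX supporting cells. Calls that set these groups high are therefore not independent of the filter and are given as a description. The XY differences at E12.5 were -0.36 for supporting and -0.40 for germ minus endothelial cells. The first was lost without E12.5 XY Flk1-mCherry replicate 1 (-0.28, adjusted p = 0.0864) or XY Sox9-ECFP replicate 2 (-0.30, adjusted p = 0.0666). With every value under 6 set to 6, the differences were -0.13 each, and only that from germ cells passed (adjusted p = 0.0477). After a repeated quantile normalisation the first was -0.23 and not called (adjusted p = 0.0522). At this stage Leydig cell markers averaged 8.29 in XY endothelial cells, 6.11 in XY supporting and 5.35 in XY germ cells, and germ cell markers averaged 6.98 in XY endothelial and 6.14 in XY supporting cells. Their part in the Dmrt2 values was not tested. The Dmrt2 calls that set XX germ cells at E11.5 below both other lineages rested on values below the limit, since the supporting minus germ difference of 0.44 became 0.03 and the germ minus endothelial difference of -0.30 became -0.002. In XX at E12.5 the germ minus endothelial difference was -0.34 (adjusted p = 0.00959, limma) and stayed called at -0.17 with that floor. It was lost without E12.5 XX Flk1-mCherry replicate 3 or XX Oct4-EGFP replicate 2, and when only the groups compared were fitted.

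Dmrta1 had the widest range of the 5 genes and was the only one with called differences lower in XY. The 250 bases before its annotated start are printed here with those of Dmrta2, its relative on the same chromosome whose level hardly moved, because these genes mark the ends of the range within the group. The sequences are from RefSeq on GRCm38.p6, plus strand, 5′ to 3′, at chr4:89687948-89688197 for Dmrta1 and chr4:109977775-109978024 for Dmrta2, and capitals mark matches to the motifs described next.
Dmrta1: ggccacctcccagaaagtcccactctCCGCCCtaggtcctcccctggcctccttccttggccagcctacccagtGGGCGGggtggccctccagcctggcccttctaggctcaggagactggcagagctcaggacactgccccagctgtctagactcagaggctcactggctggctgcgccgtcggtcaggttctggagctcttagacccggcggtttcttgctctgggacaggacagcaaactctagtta
Dmrta2: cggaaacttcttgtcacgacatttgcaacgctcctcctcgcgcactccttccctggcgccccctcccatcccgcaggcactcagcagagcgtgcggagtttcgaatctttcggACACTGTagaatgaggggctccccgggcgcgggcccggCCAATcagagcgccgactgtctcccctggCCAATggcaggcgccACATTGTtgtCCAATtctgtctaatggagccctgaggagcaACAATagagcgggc

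The search covered 7 short motifs on both strands in 32851 promoters of this length. The GC box GGGCGG, found in 32.7% of promoters, occurred 2 times before Dmrta1 and not before Dmrta2. Before Dmrta2 the CCAAT box (33.8% of promoters) occurred 3 times, ACANTGT, the core of a DM domain protein site, which reads the same on both strands (6.5%), 2 times, and ACAAT, the core of a SOX site (27.7%), 2 times, of which 1 overlaps an ACANTGT match. The GATA motif AGATAA (10.0%), the NR5A1 motif AAGGTCA (4.1%) and the TCF/LEF motif CTTTGAT (3.2%) were not found in either window. The table held 4 of the 5 genes. Before Dmrt2 and Dmrt3 the only matches were CCAAT boxes, 2 and 1. A match is a run of letters and was not tested for binding.

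Dmrta1 was highest in supporting cells at E11.5 and lower there at the later stages. At E11.5 supporting cells held 8.07, 9.03 and 8.95 in XY and 8.82, 8.52 and 9.06 in XX, overlapping, with a difference of -0.12 (95% interval -0.57 to 0.33, adjusted p = 0.878, with 9.59% of clusters called). At E12.5 they held 6.77, 6.89 and 6.76 in XY and 7.81, 6.97 and 8.08 in XX. At E13.5 they held 6.99, 7.33 and 7.27 in XY and 7.50, 7.71 and 8.47 in XX. At both later stages every XY array was below every XX array, although the XX arrays were widely spread. From E11.5 to E12.5 Dmrta1 fell by 1.88 units in XY supporting cells (95% interval -2.32 to -1.43, 3.67-fold, adjusted p = 2.5e-09) and by 1.18 units in XX supporting cells (-1.63 to -0.74, 2.27-fold, adjusted p = 1.5e-04). The XX step did not pass when only the groups compared were fitted (adjusted p = 0.0859). The XY minus XX difference was -0.81 at E12.5 (95% interval -1.26 to -0.36, 1.75-fold, adjusted p = 0.00369, with 13.8% of clusters called as lower in XY) and -0.70 at E13.5 (-1.15 to -0.25, 1.62-fold, adjusted p = 0.0135). The E12.5 call rested on E12.5 XX Sry-EGFP replicate 3, without which the difference was -0.58 (adjusted p = 0.0691), and was lost when only the supporting groups were fitted (adjusted p = 0.0577). The E13.5 call was lost without E13.5 XX Sry-EGFP replicate 3 (-0.41, adjusted p = 0.215) and without E13.5 XY Sox9-ECFP replicate 1 (-0.59, adjusted p = 0.0774). The growth of the sex difference between E11.5 and E12.5, -0.69, did not pass the test (95% interval -1.33 to -0.06, adjusted p = 0.168). It passed under the methods' limits, with array weights (-1.08, adjusted p = 0.0104), and without E11.5 XY Sry-EGFP replicate 1 (-0.996, adjusted p = 0.0299) or E12.5 XX Sry-EGFP replicate 2 (-1.02, adjusted p = 0.025).

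**Figure D3:**
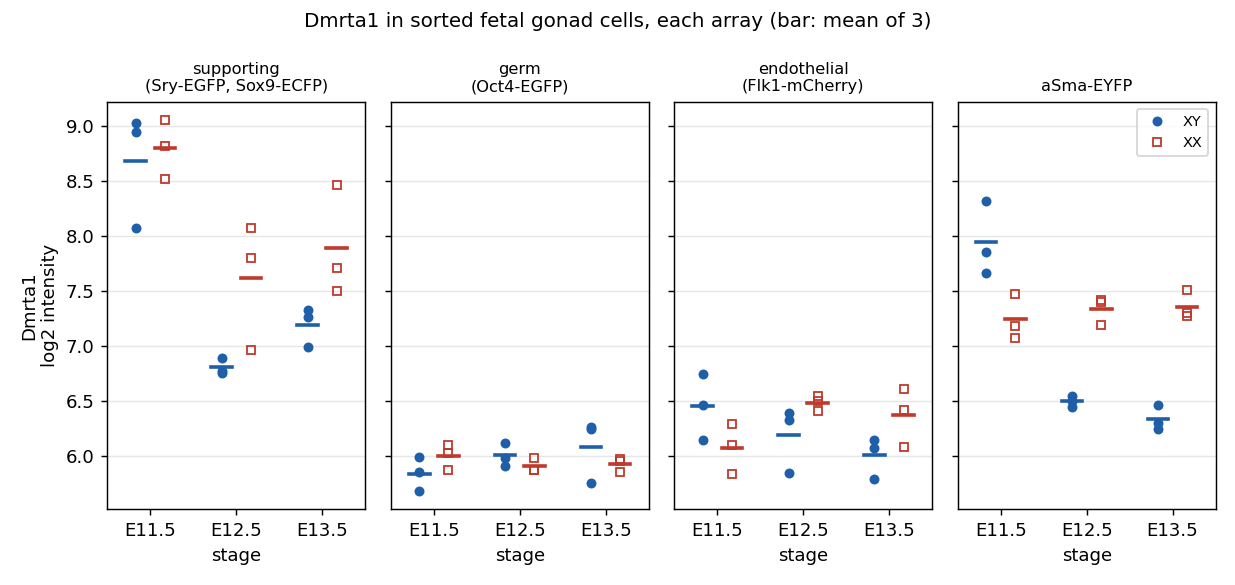
Log2 intensity of Dmrta1 (vertical axis) on each array by embryonic stage, E11.5 to E13.5 (horizontal axis), with a panel for each sorted population, XY left of XX, and bars at the group means. Supporting cells start at means of 8.68 (XY) and 8.80 (XX) and reach 6.81 and 7.62 at E12.5, while germ cells lie between 5.68 and 6.26 throughout.

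In aSma-EYFP cells the measured order of the sexes reversed after E11.5, although the E11.5 difference was not called. At E11.5 Dmrta1 stood at 7.66, 8.33 and 7.86 in XY and 7.47, 7.07 and 7.19 in XX, with XY above XX by 0.71 (95% interval 0.28 to 1.13), which did not pass the adjusted test (adjusted p = 0.249, with 0.249% of clusters called). At E12.5 it stood at 6.45, 6.50 and 6.54 in XY and 7.42, 7.19 and 7.40 in XX, and at E13.5 at 6.46, 6.30 and 6.25 in XY and 7.51, 7.30 and 7.27 in XX. The groups did not overlap at any stage. The difference was -0.84 at E12.5 (1.79-fold, adjusted p = 0.00615) and -1.03 at E13.5 (2.04-fold, adjusted p = 3.6e-04, with 5.73% of clusters called), and both were kept under all 14 alternatives. The change of the sex difference from E11.5 to E12.5, a test added after these values were seen, was -1.55 (95% interval -2.14 to -0.95, adjusted p = 6.9e-04, with 1.19% of clusters called). Within the sexes, Dmrta1 fell by 1.45 units in XY cells (2.73-fold, adjusted p = 8.1e-07, with 4.70% of clusters called), and the step in XX cells was 0.10. Markers of XX supporting cells (Foxl2, Fst, Irx3, Wnt4) averaged 6.95 in XY and 8.48 in XX aSma-EYFP cells at E12.5, and those of XY supporting cells averaged 7.27 in XY and 6.48 in XX at E11.5 and 7.40 in XY and 6.28 in XX at E12.5. Their part in the Dmrta1 values was not tested.

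Germ and endothelial cells lay near the filter limit for Dmrta1. Germ cell arrays lay between 5.68 and 6.26, and endothelial arrays between 5.79 and 6.75, with no sex difference called in either. The germ minus endothelial difference was called in XY at E11.5 (-0.61) and in XX at E12.5 (-0.57). With values under 6 set to 6 these were -0.45 and -0.485, and neither was called. The XY call was also lost with array weights and without E11.5 XY Flk1-mCherry replicate 3 or XY Oct4-EGFP replicate 2. The XX call was lost under 7 of 16 alternatives. The study described 1 E11.5 XY endothelial array as something of an outlier in its clustering, without naming the replicate. Against germ cells, supporting cells were higher in all 6 comparisons. With germ cell values under 6 set to 6, the differences were 2.68, 0.77 and 1.03 in XY and 2.76, 1.62 and 1.89 in XX at the 3 stages, or at least 6.43-, 1.71- and 2.04-fold in XY and 6.77-, 3.07- and 3.71-fold in XX. Against endothelial cells, supporting cells were higher by 2.23, 0.62 and 1.19 in XY and by 2.72, 1.13 and 1.52 in XX. These 6 differences were called too, of which that in XY at E12.5 was lost without E12.5 XY Flk1-mCherry replicate 2 (0.45, adjusted p = 0.155) or XY Sox9-ECFP replicate 2 (0.58, adjusted p = 0.0795). Dmrta1 was thus higher in supporting cells than in both other lineages in each sex and stage, as were 10.5%, 10.4% and 9.61% of clusters in XY and 10.7%, 10.9% and 11.4% in XX. The sex difference in supporting cells was below that in germ cells by -0.90 at E12.5 (adjusted p = 0.0344) and -0.86 at E13.5 (adjusted p = 0.0362). The E12.5 call was lost when any of 8 of the 12 arrays behind it was left out (XX Oct4-EGFP replicates 1 and 2, XY Oct4-EGFP 1 and 3, XX Sry-EGFP 1 and 3, and XY Sox9-ECFP 1 and 3), lowest in size at -0.67 without XX Sry-EGFP replicate 3. The E13.5 call was lost without any of 6 (XX Oct4-EGFP 2 and 3, XY Oct4-EGFP 1 and 3, XX Sry-EGFP 3 and XY Sox9-ECFP 1), lowest in size at -0.57 without XX Sry-EGFP replicate 3.

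Dmrta2 intensity varied little over the 3 lineages, at 7.0 to 7.62 on the 54 arrays. In E12.5 supporting cells it held 7.34, 7.40 and 7.39 in XY and 7.25, 7.04 and 7.14 in XX. The XY arrays were tightly grouped above the XX arrays, by 0.23 (95% interval 0.06 to 0.40, 1.17-fold, adjusted p = 0.0295), its only sex call, lost under 8 of 16 alternatives. These included the replicate block, a repeated quantile normalisation and the fits without XX Sry-EGFP replicates 2 (0.18) or 3 (0.23) or XY Sox9-ECFP replicates 2 (0.22) or 3 (0.23). Its value cannot be separated from the antisense Dmrta2os by these files alone. No stage step and none of its 18 lineage comparisons was called.

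**Figure D4:**
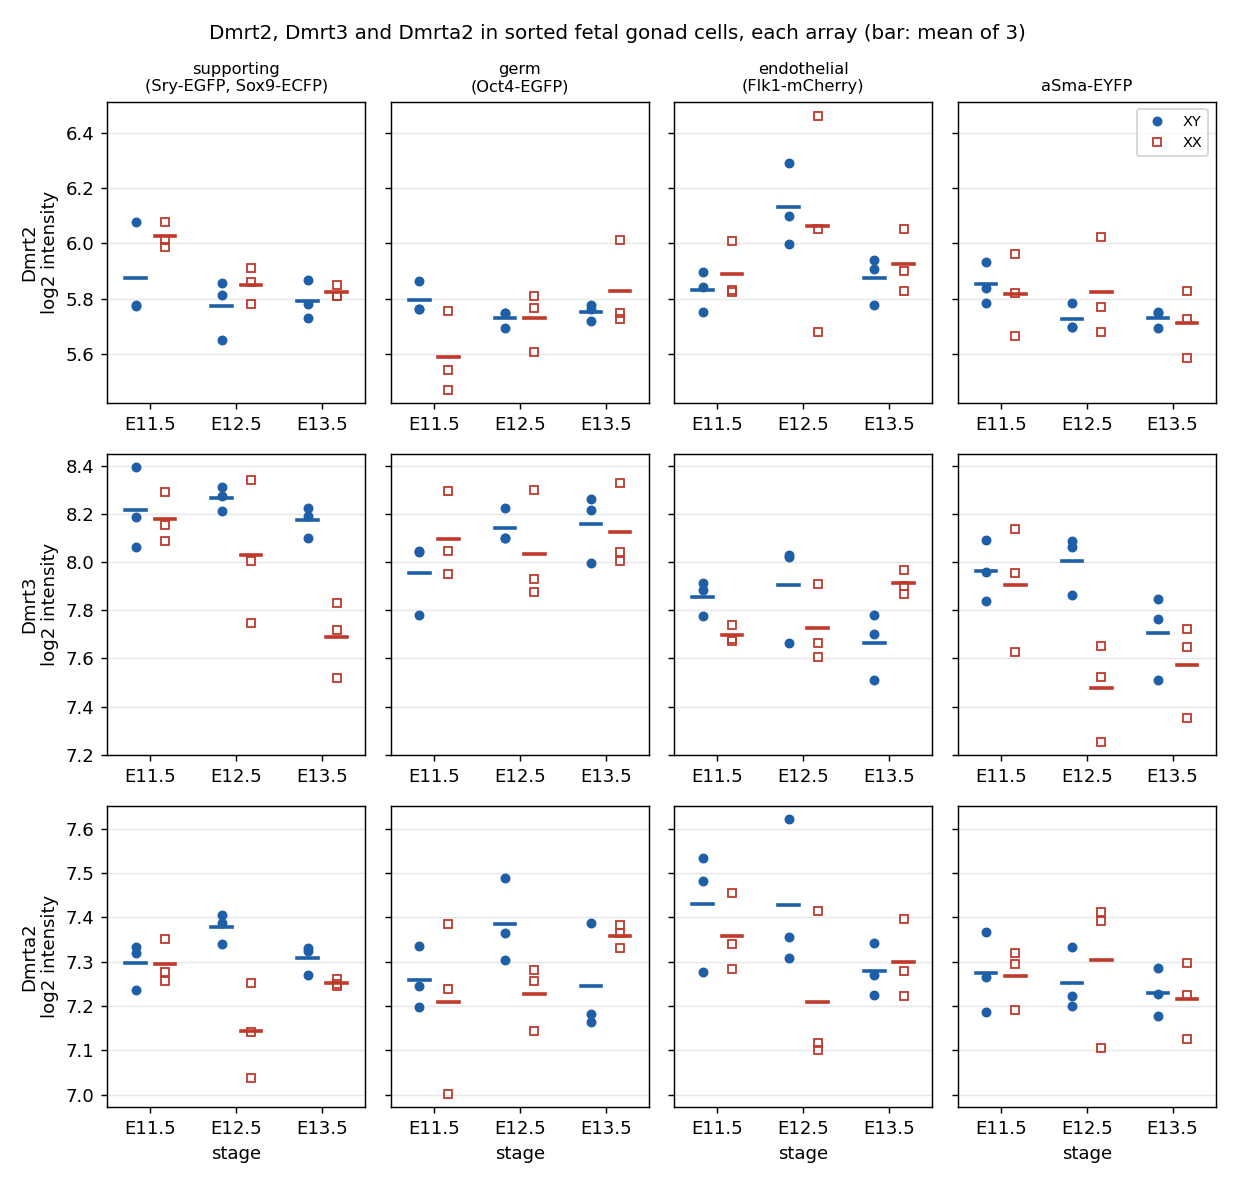
Log2 intensity of Dmrt2, Dmrt3 and Dmrta2 (vertical axis) on each array, by sorted population and stage (horizontal axis), XY left of XX, with group means. Dmrt2 lies around the filter limit of 6, Dmrt3 separates XY from XX supporting cells at E13.5 by 0.48, and Dmrta2 stays between 7.0 and 7.62 in the 3 lineages.

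Over the 3 lineages and the aSma-EYFP cells, 10 of the 60 sex differences of the 5 genes were called, 6 in the 3 lineages and 4 in aSma-EYFP cells. Dmrta1 held 4, all lower in XY, Dmrt1 3, Dmrt3 2 and Dmrta2 1, all higher in XY, and Dmrt2 none. None was in germ or endothelial cells, and none was at E11.5. The share of clusters called in these contrasts ranged from 0.202% in germ cells at E11.5 to 30.7% in supporting cells at E12.5. The XY and XX arrays did not overlap in 6 of 12 contrasts for Dmrta1, 4 for Dmrt3, 3 each for Dmrt1 and Dmrta2 and 1 for Dmrt2, where 9.86% to 47.0% of all tested clusters did not overlap (median 21.8% over the 12 contrasts).

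**Figure D5:**
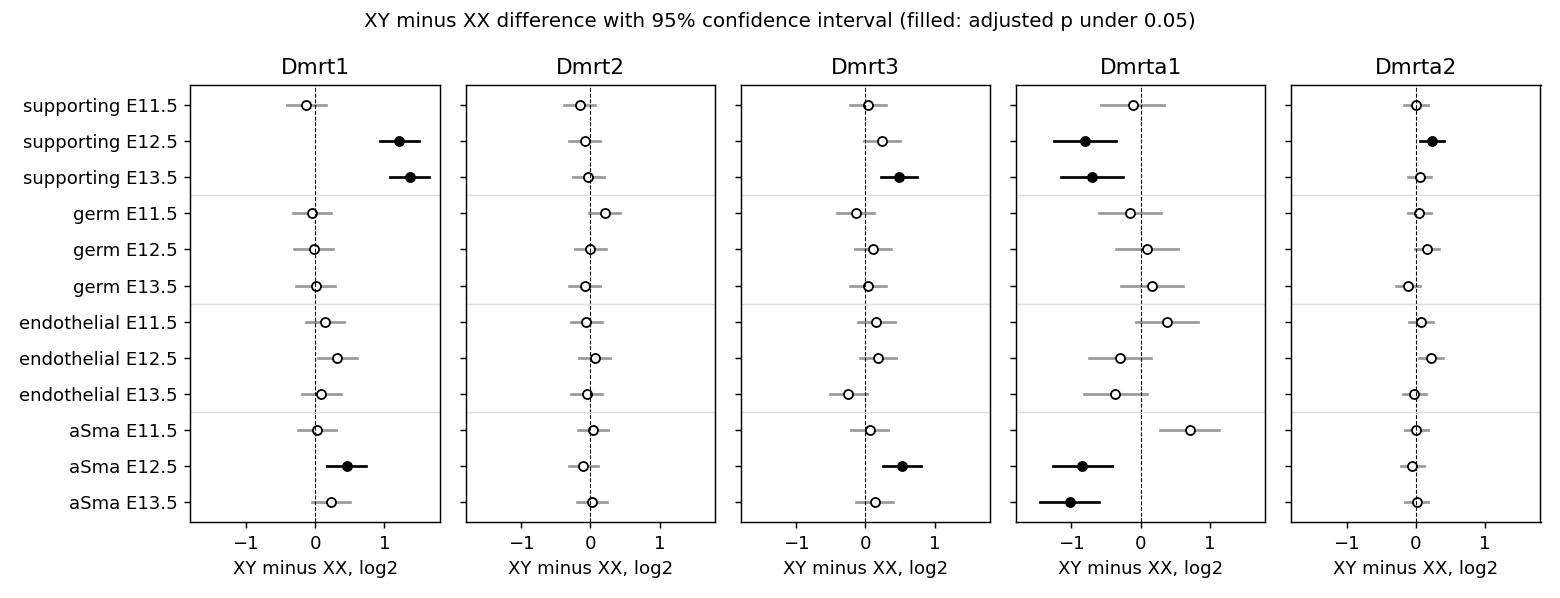
XY minus XX difference in log2 intensity (horizontal axis, with 95% intervals from limma) for each gene by population and stage, with called differences marked. Dmrt1 lies to the right of 0 in supporting cells at E12.5 (1.21) and E13.5 (1.37), and Dmrta1 to the left in supporting and aSma-EYFP cells at both stages.

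Other genes of the sex-determining programme placed these values. Among XY and XX supporting cells, 12, 14 and 12 of 17 testis-side genes were called higher in XY at the 3 stages and none was called lower. Nr0b1 (-0.56 at E12.5 and -0.63 at E13.5) and Wt1 (-0.23 and -0.33) had lower means in XY. The median differences of the list were 0.66, 1.88 and 1.52, against medians of -0.001, -0.002 and -0.026 over all clusters. Amh, the hormone that removes the Müllerian ducts, differed by at least 3.83 at E12.5 with values under 6 set to 6, and Cst9, a cystatin of Sertoli cells, by 5.05. Of 12 ovary-side genes, 8, 10 and 10 were called lower in XY and none was called higher, with medians of -0.80, -1.65 and -1.82. Fst, an activin antagonist, differed by -5.26 and Rspo1, an activator of WNT signalling, by -2.36 at E12.5. Thus Dmrt1, with 1.21 at E12.5, lay below the testis-side median, and Dmrta1, with -0.81, was smaller in size than the ovary-side median. At E11.5, when 12 testis-side and 8 ovary-side genes were called, neither Dmrt1 nor Dmrta1 was. Ovary-side genes were also lower in XY in the aSma-EYFP sort (10 of 12 at E12.5 and 9 at E13.5, with 1 higher at E12.5), as Dmrta1 was.

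In germ cells at E13.5, where Dmrt1 was not called, 10 of 12 tested male germ cell genes were higher in XY. All 11 genes of the meiotic germ cell list, which held Sohlh2 and Figla too, were lower in XY. The medians were 1.13 and -1.15 (0.82 and -1.15 with values under 6 set to 6). On that floored scale Nanos2, an RNA-binding regulator of male germ cells, was higher in XY by at least 3.71, and Stra8, the trigger of meiotic entry, differed by -4.35, a bound on its size. Of the other DM domain genes, Dmrtb1 and Dmrtc2 were tested. Dmrtc2, a meiotic gene of this family, held 6.51, 6.62 and 6.47 in XY germ cells and 7.02, 7.31 and 7.64 in XX germ cells at E13.5, apart by -0.79 (1.73-fold, adjusted p = 7.7e-07), and was the only call for this pair in the 9 sex comparisons of the 3 lineages.

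The genes whose 18 group means followed Dmrt1 most closely were Kif21a (Pearson correlation 0.93), Supt5 (0.92), Mast2 (0.92), Ercc6 (0.91) and Dmrt3 (0.90), among all tested clusters. By Spearman correlation they ranked 1, 32, 3, 13 and 70. For Dmrta1 they were Naaa, Lor, Zfhx4, Zbtb7c and Pdgfc (0.95 to 0.96). This list was less settled, since by Spearman correlation the same genes ranked 98, 104, 155, 875 and 801. All these points share arrays and lineages, and likeness of pattern was not tested.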

How the data were processed

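Cells were sorted by flow cytometry, and their RNA was amplified (Nugen Pico) and hybridised to Affymetrix Mouse Gene 1.0 ST arrays. The deposited table holds log2 intensities for 35557 transcript clusters on 91 arrays, made by the authors with Partek Genomics Suite by RMA (GC and sequence adjustment of probes, quantile normalization, median polish). The genome build is not given in the sources used here. Array medians lay between 6.56 and 6.81, and the number of arrays, 3 per group, limits the precision.

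Clusters naming 1 gene (21789 of 23410 annotated) were kept where log2 exceeded 6 on at least 2 of 3 arrays of a group. Group means were fitted with limma 3.58.1 (R 4.3.3) over 72 arrays (90 for aSma-EYFP), which include 18 arrays of 1 population not reported here and share 1 estimate of the spread. The fitting script was tested on simulated data. P-values were adjusted by Benjamini-Hochberg over all tested clusters; a call is an adjusted p under 0.05. Alternatives changed the limits, normalisation, filter, floor, variance model, arrays fitted and replicates. The fit had no replicate block, because the methods name none, and a blocked fit was an alternative. Deviations of same-numbered XY and XX arrays all correlated over 0.1 in 1 of 12 sets (germ cells at E12.5). All members and their groups of related genes, and the genes most like Dmrt1 and Dmrta1 (the 5 highest Pearson correlations over group means), were chosen with earlier results of these data known. The genes described are the 5 members; related genes were named for the largest differences in their lists.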

Additional observations from a re-analysis of the deposited data

Results flagged for a closer look

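In 6 cases a test of the difference between groups showed unequal effects. The Dmrt1 sex difference (XY minus XX) in supporting cells grew by 1.34 log2 units from E11.5 to E12.5 (adjusted p = 8.1e-07, limma), and it exceeded that in germ cells by 1.23 at E12.5 (adjusted p = 1.9e-06) and 1.36 at E13.5 (adjusted p = 1.6e-07). The Dmrta1 sex difference in supporting cells was below that in germ cells by -0.90 at E12.5 (adjusted p = 0.0344) and -0.86 at E13.5 (adjusted p = 0.0362). That in aSma-EYFP cells changed by -1.55 from E11.5 to E12.5 (adjusted p = 6.9e-04). This last test was added after the values were seen and does not stand as a planned test.

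In 10 further pairs the groups of each contrast did not overlap and the contrasts had opposite signs. The difference within each pair was not tested. In the sex contrasts 9.86% to 47.0% of all tested clusters did not overlap, and no such share was taken for stage steps or for opposed pairs. For Dmrt1 the pairs were steps from E11.5 to E12.5. In XY cells the step was 0.65 in supporting and 0.56 in germ cells, each against -0.29 in aSma-EYFP cells. In XX cells it was 0.53 in germ cells, against -0.69 in supporting and -0.71 in aSma-EYFP cells. The Dmrta1 step in XX supporting cells, -1.18, opposed a step of 0.41 in endothelial cells, and the Dmrta1 sex difference in aSma-EYFP cells was 0.71 at E11.5 and -1.03 at E13.5. For Dmrt3 the sex difference at E13.5 was 0.48 in supporting cells and -0.25 in endothelial cells, where it was 0.16 at E11.5. The remaining pairs were small. The Dmrt2 step to E12.5 in XY cells was 0.30 in endothelial cells, -0.068 in germ cells and -0.13 in aSma-EYFP cells.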

How the results depend on the processing

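Of 285 results on the 5 genes, 68 were called, and no called result reversed its direction under any alternative. Fitting only the groups compared gave 4 sex differences in place of 6. With array weights, stage steps rose to 10 from 6 (in aSma-EYFP cells 5 from 3) and changes of the sex difference to 4 from 1 (in aSma-EYFP cells 2 from 1). The methods' limits lost 24 of the 68 calls and gained 3, with 26 lineage calls in place of 43, 4 sex differences and 4 stage steps in place of 6 each (in aSma-EYFP cells 3 and 2, in place of 4 and 3) and 3 changes of the sex difference in place of 1. Leaving out 1 replicate at a time gave 4 to 7 sex differences (2 to 4 in aSma-EYFP cells), 5 to 7 stage steps (2 to 4), 40 to 44 lineage calls, 1 to 2 changes of the sex difference (1 in aSma-EYFP cells each time) and 3 to 5 differences between supporting and germ cells.

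No source says that replicate numbers pair arrays. Of 36 same-numbered XY and XX pairs, 13 correlated over 0.1 in their deviations (median 0.07), with 7 of 9 in germ cells, where the block changed no call. With the replicate number as a block, 66 of the 68 calls were kept. Sex differences fell to 5 calls (4 in aSma-EYFP cells), aSma-EYFP steps to 2, and the other counts stayed at 6 stage steps, 43 lineage calls, 1 change of the sex difference and 4 differences between supporting and germ cells. The calls lost were those of Dmrta2 in supporting cells at E12.5 and of Dmrt1 from E12.5 to E13.5 in XY aSma-EYFP cells. A floor of 6 lost 5 calls and gained 1, and a repeated quantile normalisation lost 7 and gained 2. A filter at log2 over 7 left out Dmrt2 and kept all 63 calls of the other 4 genes. Averaging several clusters of a gene could not be run, since each gene had 1. Levels near 6 limit what can be said of Dmrt2 and of Dmrta1 in germ cells.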

Other observations

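The whole newborn mouse, a single array with no replicate, held 7.03 for Dmrt1, 6.39 for Dmrt2, 7.62 for Dmrt3, 6.08 for Dmrta1 and 7.48 for Dmrta2. Dmrt2 was higher there than on 71 of the 72 sorted arrays of the lineages and aSma-EYFP cells and Dmrta2 higher than on 68, whereas Dmrt1, Dmrt3 and Dmrta1 exceeded 11, 7 and 18.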
